A study of Homo sapiens with 5 samples.

Results

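The 10 genes described here encode the Notch receptors NOTCH1, NOTCH2 and NOTCH3 and 7 enzymes that add sugars to them: GXYLT1, GXYLT2, XXYLT1, POGLUT1, POFUT1, LFNG and RFNG. The set was chosen because GXYLT1 was much lower after FAM53C knock-down, so the GXYLT1 values are given as a description and were not tested. All 10 genes are among the 64252 in the count table, and 9 of them are among the 15341 that had enough counts to be tested. NOTCH3 did not.

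The extracellular part of a Notch receptor is a chain of EGF repeats, small folded modules that carry sugars needed for the receptor to reach the cell surface and to respond to its ligands. POGLUT1 starts one sugar chain by attaching glucose to a serine of the repeat. GXYLT1 or GXYLT2 extends the glucose with a xylose, and XXYLT1 adds a further xylose. POFUT1 starts another chain with fucose, which the Fringe enzymes LFNG and RFNG extend and which changes how strongly the receptor responds to each type of ligand.

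RNA was sequenced from wild-type RPE-1 cells, a human line derived from the retinal pigment epithelium and immortalized, to ask whether reducing FAM53C, a cell cycle regulator, raises transcripts of CDKN1A, the gene of the cell cycle inhibitor p21. The siCtrl group (3 libraries) received the ON-TARGET Control #1 siRNA, and the siFAM53C group (2 libraries) an ON-TARGETplus pool of siRNAs against FAM53C. By the labels, both were used at 5 µM with Lipofectamine RNAiMAX, and cells were collected after 48 hr. Several siRNAs were pooled, so an effect of FAM53C loss and an effect of one siRNA on other transcripts cannot be told apart in these samples. The methods give duplicates for each condition, and no source says whether the libraries came from separate cultures, so p-values measure only the spread between these libraries.

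The libraries held 19260124 to 25615415 counts on genes. FAM53C itself had 60.9, 59.7 and 57.6 CPM (gene counts brought to a common library size with TMM factors) in the siCtrl libraries and 14.2 and 22.3 CPM in the siFAM53C libraries, with no overlap. It shares 704 exon bases with genes on the opposite strand, CDC25C among them. The sources do not say whether the counting used strand, so part of its count could belong to those genes. The libraries also separated in a way that did not follow the siRNA. On the first principal component, which held 39.8% of the variance, siCtrl 3 and siFAM53C 2 lay on one side, siCtrl 1 and siCtrl 2 on the other, and siFAM53C 1 near the centre. Differences are therefore also given within the sides of this split. These are siFAM53C 1 against siCtrl 1 and 2, and siFAM53C 2 against siCtrl 3. The split was taken from the values of these same libraries and not from the labels. In it siFAM53C 1, near the centre, was placed with siCtrl 1 and 2. A model term for the split takes up spread that it was drawn from, so p-values with that term are a description only. Of 8 markers of the retinal pigment epithelium, RPE65 was at 0 in every library and 2, MITF and OTX2, were above 10 CPM on average, while the epithelial keratins KRT8 and KRT18 had 259 and 168 CPM in siCtrl. The summed level of 4 epithelial markers was 384 to 467 CPM in siCtrl and 500 to 502 CPM in siFAM53C, CDH1 and EPCAM being near 0. The sum of 4 mesenchymal markers was 8551 to 11679 CPM in siCtrl and 8959 to 11041 CPM in siFAM53C. Among them COL1A1 rose by 0.74 on the log2 scale (Benjamini-Hochberg adjusted p = 0.03098 in edgeR), while CDH2 had 327 CPM in siCtrl and 240 CPM in siFAM53C without overlap and did not pass the threshold. The sums of 4 leukocyte and 4 endothelial markers stayed at or below 1.06 CPM in every library. The part of these levels in the results that follow was not tested.

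GXYLT1 encodes the xylosyltransferase that selected the set (ENSG00000151233, chr12:42081845-42144874, minus strand, GRCh38). Its counts were 1567, 1318 and 1458 under siCtrl and 461 and 392 under siFAM53C, which is 66.5, 69.0 and 76.4 CPM against 17.4 and 16.6 CPM. The groups were far apart, and the spread within each was small, with means of 70.6 ± 5.14 (SD, n = 3) and 17.0 ± 0.557 (SD, n = 2) CPM. The siFAM53C mean was 24.1% of the siCtrl mean, a log2 fold change of -2.05 (SE 0.12). The difference was alike within both sides of the split, -1.95 and -2.19, and ranged from -2.09 to -1.98 over 13 other ways of fitting. Ordered by log2 fold change, GXYLT1 was number 82 from the lowest of the 15341 tested genes, and 525 genes were below -1. No exon base of GXYLT1 is shared with another gene on the opposite strand, and the 6 pseudogenes named for it held at most 2 counts in any library. In bulk RNA, fewer cells of one kind and less RNA per cell cannot be told apart, here and in what follows.

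GXYLT2 (ENSG00000172986, chr3:72888046-72998138, plus strand) encodes the enzyme with the same activity as GXYLT1, and was close to the limit of detection. It had 44, 28 and 11 counts in siCtrl and 49 and 29 in siFAM53C, or 1.87, 1.47 and 0.576 CPM against 1.85 and 1.23 CPM. The groups overlapped, and the log2 fold change of 0.24 (SE 0.56) had a 95% interval of -1.06 to 1.53. Changes of up to 1 log2 unit in either direction lie inside this interval, and the siCtrl libraries themselves differed, siCtrl 3 being the lowest. Summed per length of transcript, the TPM of GXYLT1 and GXYLT2 together was 36.7, 37.0 and 41.9 in siCtrl and 11.8 and 10.3 in siFAM53C. GXYLT1 made up 96.3 ± 1.99% (SD, n = 3) of that sum in siCtrl and 84.6 ± 3.32% (SD, n = 2) in siFAM53C. GXYLT1 remained the more abundant of the pair in all 5 libraries.

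XXYLT1 (ENSG00000173950, chr3:195068284-195271159, minus strand), which acts on the product of GXYLT1, had 32.3, 34.2 and 32.0 CPM in siCtrl and 35.1 and 30.6 CPM in siFAM53C. The 2 siFAM53C values lay on either side of all 3 siCtrl values. The log2 fold change was 0.0022 (SE 0.12), with a 95% interval of -0.29 to 0.29.

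POGLUT1 (ENSG00000163389, chr3:119468963-119494708, plus strand), the O-glucosyltransferase that provides the substrate of GXYLT1, stood lower with siFAM53C, without overlap between the groups. The values were 28.0, 30.3 and 40.1 CPM in siCtrl and 18.0 and 22.9 CPM in siFAM53C. The siCtrl libraries themselves were spread, siCtrl 3 being 0.46 above the mean of the other two on the log2 scale. The siFAM53C mean was 62.2% of the siCtrl mean, a log2 fold change of -0.68 (SE 0.20, 95% interval -1.14 to -0.22). It did not pass the threshold of 0.05 (Benjamini-Hochberg adjusted p = 0.1237 over all tested genes in edgeR's quasi-likelihood test). Within the sides of the split the difference was -0.69 and -0.81. With a term for the split in the model it was -0.75 (Benjamini-Hochberg adjusted p = 0.0005032 in edgeR). DESeq2 also called POGLUT1 lower, with no term for the split (adjusted p = 0.03196 from the Wald test), so the call depended on the fit.

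**Figure D1:**
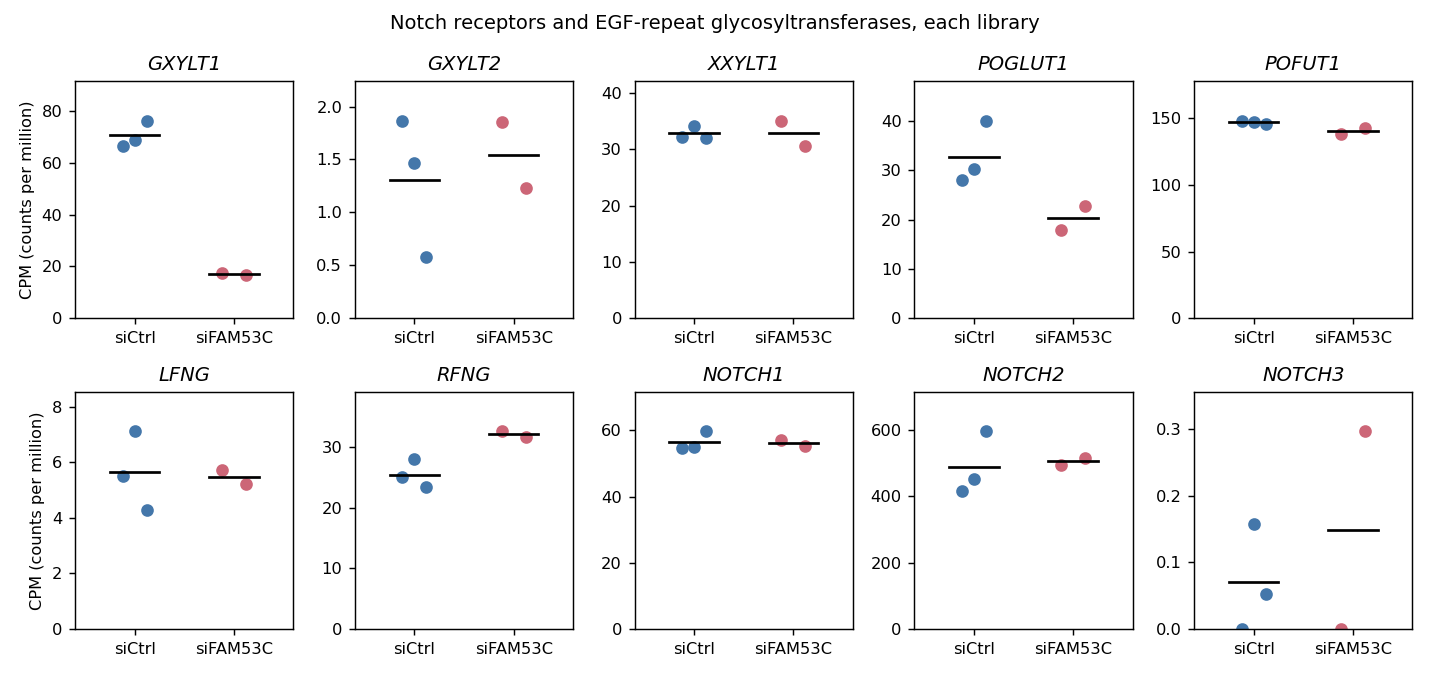
Level of each of the 10 genes in CPM (vertical axis, starting at 0, with its own scale in each panel) in the 3 siCtrl and 2 siFAM53C libraries. Each point is 1 library and each bar the group mean. GXYLT1 stands at 66.5 to 76.4 CPM in siCtrl and at 16.6 to 17.4 CPM in siFAM53C, and the groups also do not overlap for POGLUT1, POFUT1 and RFNG.

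On the fucose chain, POFUT1 (ENSG00000101346, chr20:32207855-32238658, plus strand), the O-fucosyltransferase, had 148, 148 and 146 CPM in siCtrl and 138 and 143 CPM in siFAM53C. Both siFAM53C values were below all siCtrl values, but by little, with a log2 fold change of -0.066 (SE 0.095, 95% interval -0.29 to 0.15). The direction turned to 0.0048 when libraries were scaled by their totals alone.

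RFNG (ENSG00000169733, chr17:82047902-82051831, minus strand), one of the Fringe enzymes, had 25.1, 28.0 and 23.4 CPM in siCtrl and 32.7 and 31.8 CPM in siFAM53C. Both siFAM53C libraries were above all siCtrl libraries, at 126% of the siCtrl mean. The log2 fold change was 0.34 (SE 0.13, 95% interval 0.029 to 0.65), with 0.30 and 0.44 within the sides of the split. It did not pass the threshold (Benjamini-Hochberg adjusted p = 0.2488 in edgeR), nor with the term for the split (adjusted p = 0.05274 from the same test). RFNG shares 835 exon bases with GPS1 on the opposite strand, and the sources do not say whether the counting used strand, so part of its count could belong to GPS1.

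LFNG (ENSG00000106003, chr7:2512529-2529177, plus strand), a further Fringe enzyme, was low, with 5.52, 7.12 and 4.30 CPM in siCtrl and 5.71 and 5.22 CPM in siFAM53C. The siFAM53C values fell inside the siCtrl range, with a log2 fold change of -0.046 (SE 0.28, 95% interval -0.71 to 0.61). MFNG, the remaining Fringe enzyme, had 2 to 12 counts per library and was not tested. RFNG accounted for 80.3 ± 2.55% (SD, n = 3) of the summed TPM of LFNG and RFNG in siCtrl and for 84.0 ± 0.591% (SD, n = 2) in siFAM53C.

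Among the receptors, NOTCH2 (ENSG00000134250, chr1:119911553-120100779, minus strand) was the most abundant. It had 416, 452 and 595 CPM in siCtrl and 495 and 514 CPM in siFAM53C, so that the siFAM53C libraries lay within the wide siCtrl range. The log2 fold change was 0.049 (SE 0.16, 95% interval -0.33 to 0.43), and its sign differed between the sides of the split, 0.19 and -0.21. The near copy NOTCH2NLA held 34 to 58 counts per library against 8643 to 13101 for NOTCH2. The sources do not say how reads that fit both genes were counted.

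NOTCH1 (ENSG00000148400, chr9:136494433-136546048, minus strand) had 54.8, 54.9 and 59.7 CPM in siCtrl and 57.2 and 55.1 CPM in siFAM53C. The groups overlapped, with a log2 fold change of -0.0079 (SE 0.11, 95% interval -0.25 to 0.24). NOTCH3 (ENSG00000074181, chr19:15159038-15200995, minus strand) had 0, 3 and 1 counts in siCtrl and 0 and 7 in siFAM53C, at which depth no comparison is possible. NOTCH2 made up 86.4 ± 1.61% (SD, n = 3) of the summed TPM of the 3 receptors in siCtrl and 87.0 ± 0.536% (SD, n = 2) in siFAM53C.

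Counts are given for the 8 tested genes other than GXYLT1, the gene the set was selected on. In edgeR, 0 of the 8 were called in either direction, where 3.47% of all tested genes were called lower (533 genes) and 0.489% higher (75 genes). At an unadjusted p under 0.05, 1 was lower (POGLUT1) and 1 higher (RFNG), beside 10.5% and 6.61% of all tested genes. DESeq2 called 1 lower (POGLUT1) and 0 higher, beside 7.83% and 2.56% of the 12364 genes for which it gave an adjusted p. GXYLT2 was given none, so it could not be called there. With limma-voom 0 were called, beside 3.35% and 0.482%. Both siFAM53C libraries lay below all siCtrl libraries for 2 of the 8 genes (POGLUT1 and POFUT1) and above them for 1 (RFNG), where 18.8% and 16.7% of all tested genes did so. The median log2 fold change of the 8 genes was -0.0028, beside 0.016 for all tested genes. With the term for the split, 1 of the 8 was called lower (POGLUT1) and 0 higher, where 10.7% of all tested genes were called lower and 6.76% higher. With 8 genes, counts of 0 to 2 in a direction do not set the genes apart from these backgrounds.

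**Figure D2:**
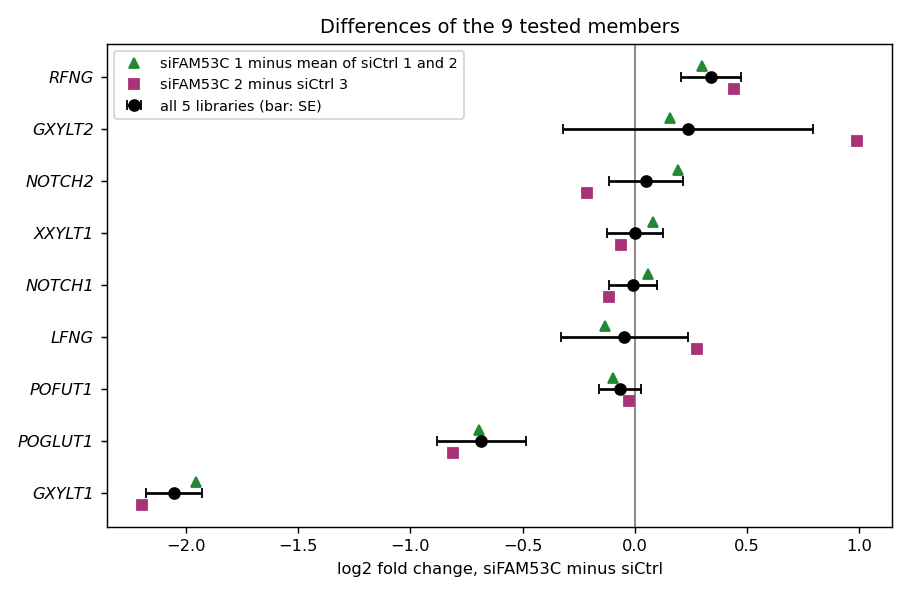
Log2 fold change of siFAM53C against siCtrl for the 9 tested genes (horizontal axis). Circles with bars are the fit over all 5 libraries with its SE, and triangles and squares the differences within the sides of the library split. GXYLT1 at -2.05 and POGLUT1 at -0.68 are the genes furthest below 0, and the symbols for NOTCH1, NOTCH2, XXYLT1 and LFNG fall on both sides of 0.

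To compare genes with one another, levels were expressed as TPM, counts per length of annotated exon scaled to a fixed sum. In siCtrl, NOTCH2 had 115 ± 25.2 TPM, POFUT1 87.2 ± 1.52, GXYLT1 37.1 ± 3.56, RFNG 25.9 ± 1.79 and XXYLT1 23.9 ± 0.530 (SD, n = 3 each). POGLUT1 followed with 18.3 ± 4.05 TPM, NOTCH1 with 17.8 ± 1.32, LFNG with 6.43 ± 1.47, GXYLT2 with 1.38 ± 0.688 and NOTCH3 with 0.0289. Among neighbours in this order, the siCtrl ranges of POGLUT1 and NOTCH1 overlapped and the others did not. Those of RFNG and XXYLT1 nearly met, the lowest siCtrl value of RFNG being 24.45 TPM and the highest of XXYLT1 24.44 TPM. Under siCtrl, GXYLT1 was thus the second most abundant of the 7 enzymes after POFUT1. In siFAM53C, GXYLT1 had 9.31 ± 0.534 TPM (SD, n = 2) and stood at position 7 of 10 in place of position 3, below POGLUT1 with 11.8 TPM. With the longest transcript as the length, GXYLT1 was at position 4 in siCtrl and XXYLT1 at position 3. RFNG then stood at position 6 in place of 4, below POGLUT1 at position 5.

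**Figure D3:**
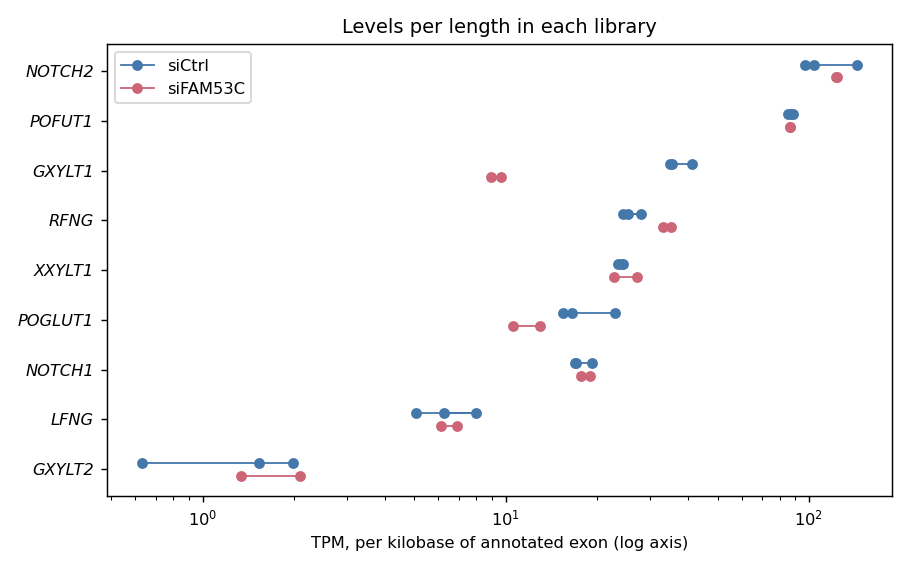
Level per length in TPM (horizontal log axis) of the 9 tested genes, ordered by their siCtrl mean, with 1 point per library and a line over the range of each group. GXYLT1 moves from 37.1 TPM on average in siCtrl to 9.31 TPM in siFAM53C, below RFNG, XXYLT1, NOTCH1 and POGLUT1.

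The surrounding pathway was examined with a list of 77 further genes in 8 functional groups, of which 62 were tested. In edgeR, 5 of them (8.06%) were lower in siFAM53C and 0 higher, beside 3.47% and 0.489% of all tested genes. At an unadjusted p under 0.05, 11 were lower and 4 higher, where 10.5% and 6.61% of all tested genes were. The 4 higher, NEURL4, DTX3, KAT2A and MAML2, are named after their values were seen. DESeq2 called 9 lower and 1 higher (KAT2A), beside 7.83% and 2.56%, and limma-voom 5 lower and 0 higher, beside 3.35% and 0.482%. The median log2 fold change was -0.045, with 36 genes below 0 and 26 above. The 5 genes that fell were MIB1, RBPJ, SLC35B4, JAG1 and ADAM10, each with both siFAM53C libraries below all siCtrl libraries. With the term for the split, 14 were lower and 4 higher (the 4 just named), beside 10.7% and 6.76% of all tested genes.

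MIB1, a ubiquitin ligase that acts on Notch ligands in the cell that sends the signal, had 88.7, 95.7 and 108 CPM in siCtrl and 32.7 and 34.0 CPM in siFAM53C. The siFAM53C values were tightly grouped and far below. It fell by 1.54 on the log2 scale (SE 0.12, Benjamini-Hochberg adjusted p = 0.001018 in edgeR), with -1.49 and -1.66 within the sides of the split. ITCH, a ubiquitin ligase that acts on Notch itself and the other most abundant gene of this group of 11 tested, had a log2 fold change of -0.15 (SE 0.099).

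RBPJ, the DNA-binding protein through which cleaved Notch acts on its target genes, had 109, 113 and 96.6 CPM in siCtrl and 50.9 and 42.2 CPM in siFAM53C. It fell by 1.19 on the log2 scale (SE 0.13, Benjamini-Hochberg adjusted p = 0.003143 in edgeR), with -1.12 and -1.19 within the sides. RBPJ was the 1 gene called of 15 in the nuclear group. With the term for the split TLE1, a corepressor named after its values were seen, was also lower (-0.52, Benjamini-Hochberg adjusted p = 0.0009367 in edgeR). The corepressor CTBP1, among the most abundant of that group, had a log2 fold change of 0.0092 (SE 0.12).

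SLC35B4, a Golgi transporter of UDP-xylose, the sugar donor that GXYLT1 uses, had 64.9, 67.9 and 75.4 CPM in siCtrl and 31.5 and 35.1 CPM in siFAM53C. It fell by 1.06 on the log2 scale (SE 0.12, Benjamini-Hochberg adjusted p = 0.003679 in edgeR), with -1.07 and -1.10 within the sides, and was the 1 gene called of 11 in the sugar supply group. UGP2 and UGDH, which make UDP-glucose and UDP-glucuronic acid on the way to UDP-xylose, had log2 fold changes of -0.13 (SE 0.11) and -0.041 (SE 0.14). UXS1, which makes UDP-xylose and is named here after its values were seen, likewise showed no overlap between the groups, with a log2 fold change of -0.48 that did not pass the threshold (Benjamini-Hochberg adjusted p = 0.08028 in edgeR). It was called lower with the term for the split (-0.51, adjusted p = 0.001692 in edgeR) and by DESeq2 (adjusted p = 0.01516). GFUS, which makes GDP-fucose and is also named after its values were seen, had 14.5 CPM in siCtrl 3 and 1.15 to 1.36 CPM in the 4 other libraries. MIB1, RBPJ and SLC35B4 kept their call in all 13 other ways of fitting. For SLC35B4 this was only narrowly so without siFAM53C 1, where its log2 fold change was -0.99.

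JAG1, a Notch ligand, had 49.3, 42.5 and 55.5 CPM in siCtrl and 21.7 and 28.7 CPM in siFAM53C. It fell by 0.96 on the log2 scale (SE 0.17, Benjamini-Hochberg adjusted p = 0.02454 in edgeR), with -1.07 and -0.95 within the sides. The call was lost without siCtrl 1, siCtrl 2 or siFAM53C 1, where the adjusted p from the same test was 0.112, 0.0655 and 0.1777 and the log2 fold change -0.96, -1.05 and -0.78. JAG1 was the 1 gene called of 4 tested in its group. Its exons overlap an opposite-strand gene over 306 bases. The other ligands were low: DLL3 had 1.80 ± 0.277 CPM (SD, n = 3) in siCtrl and 1.67 ± 0.202 CPM (SD, n = 2) in siFAM53C, and DLL1, DLK1 and the receptor NOTCH4 had 0 counts in all 5 libraries.

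ADAM10, the protease that cuts ligand-bound Notch outside the membrane, had 175, 169 and 199 CPM in siCtrl and 111 and 105 CPM in siFAM53C. It fell by 0.74 on the log2 scale (SE 0.11, Benjamini-Hochberg adjusted p = 0.01314 in edgeR), with -0.63 and -0.91 within the sides. The call was lost without siCtrl 1, siCtrl 2, siFAM53C 1 or siFAM53C 2, where the adjusted p from the same test was 0.06699, 0.0613, 0.1055 and 0.1285 and the log2 fold change stayed between -0.79 and -0.71. For all genes, the fits without a siFAM53C library leave 1 in that group, which is then assumed to vary like the siCtrl libraries. FURIN, which cuts the receptor on its way to the surface, had a log2 fold change of 0.15 (SE 0.15). Of the 9 proteases tested, ADAM10 was the 1 gene called. APH1B, a subunit of the gamma-secretase that releases the Notch intracellular domain, is named after its values were seen. It had 24.4 ± 0.407 CPM (SD, n = 3) in siCtrl and 16.8 ± 0.0146 CPM (SD, n = 2) in siFAM53C, with a log2 fold change of -0.54 (Benjamini-Hochberg adjusted p = 0.07694 in edgeR). With the term for the split it was called lower (-0.54, adjusted p = 0.009788 in edgeR), as it was by DESeq2 (adjusted p = 0.007101).

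**Figure D4:**
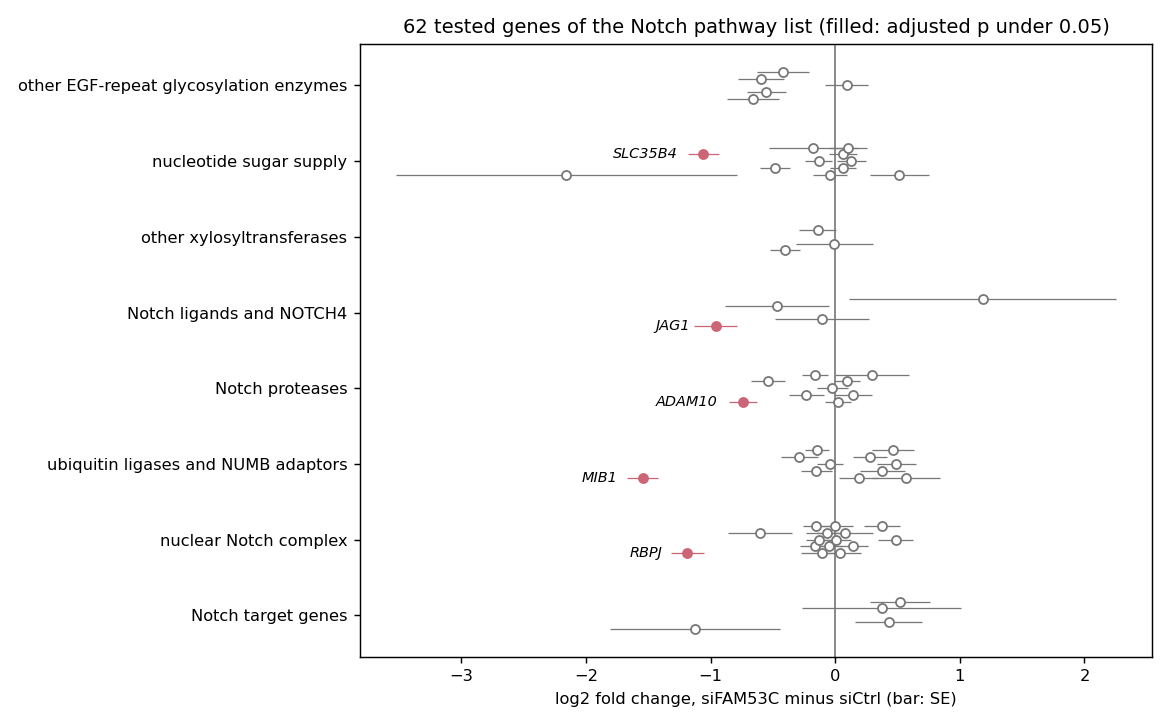
Log2 fold change of siFAM53C against siCtrl (horizontal axis, bars are SE) for the 62 tested genes of the pathway list, in 8 groups from enzymes to target genes. Filled points are the 5 genes with an adjusted p under 0.05, all below 0, from MIB1 at -1.54 to ADAM10 at -0.74.

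The other glycosylation enzymes listed were called in 0 of 5 tested cases, although 4 of the 5 had values below 0, with a median of -0.55. The 1 above 0, POFUT2, does not act on EGF repeats. At an unadjusted p under 0.05, 3 were lower, beside 10.5% of all tested genes. DESeq2 called EOGT and B4GALT1 lower, beside 7.83%, and limma-voom called 0, beside 3.35%. B4GALT1, which adds galactose to the Fringe-extended chain, had 165, 164 and 236 CPM in siCtrl and 101 and 138 CPM in siFAM53C, with no overlap and a log2 fold change of -0.66 (SE 0.21, Benjamini-Hochberg adjusted p = 0.1605 in edgeR). POGLUT3, which attaches glucose at another position of the repeat, had 118, 123 and 170 CPM in siCtrl and 85.0 and 121 CPM in siFAM53C, with overlap and a log2 fold change of -0.42 (SE 0.21). Both had siCtrl 3 as their highest library, as POGLUT1 did. With the term for the split, 4 of the 5 were called lower, beside 10.7% of all tested genes. They were B4GALT1 (-0.74), POGLUT2 (-0.61), EOGT (-0.59) and POGLUT3 (-0.50), POGLUT2 and EOGT being named after their values were seen. The split was drawn from these same libraries, so calls with its term are a description only. POFUT2, which fucosylates a different type of repeat and is also named after its values were seen, had a log2 fold change of 0.092 (SE 0.17).

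Xylosyltransferases that act on other substrates were called in 0 of 3 tested cases, and in 0 by DESeq2 or limma-voom. At an unadjusted p under 0.05, 1 was lower, beside 10.5% of all tested genes. XYLT2, which starts glycosaminoglycan chains on proteoglycans, had a log2 fold change of -0.40 (SE 0.12, Benjamini-Hochberg adjusted p = 0.1411 in edgeR), and RXYLT1, which acts on dystroglycan, one of -0.14 (SE 0.15). XYLT2 was the 1 of these 3 called lower with the term for the split (-0.38, adjusted p = 0.01308 in edgeR), beside 10.7% of all tested genes. Of the 9 Notch target genes listed, 4 were tested and 0 called, with 0 at an unadjusted p under 0.05 and 0 by DESeq2 or limma-voom. HES1, a repressor induced by Notch in many tissues, had 9.17, 6.49 and 2.72 CPM in siCtrl and 4.42 and 1.19 CPM in siFAM53C. Its groups overlapped, siCtrl 3 and siFAM53C 2 being the lowest libraries, with a log2 fold change of -1.12 (SE 0.68, 95% interval -2.75 to 0.51). With the term for the split HES1 was called lower (-0.96, SE 0.28, Benjamini-Hochberg adjusted p = 0.02885 in edgeR). HES1 was the 1 of the 4 target genes called in that fit, beside 10.7% lower over all tested genes. HES4 and HES7 had log2 fold changes of 0.43 (SE 0.27) and 0.52 (SE 0.24). HEY1 was at 0.575 ± 0.181 CPM (SD, n = 3) in siCtrl and 0.746 ± 0.335 CPM (SD, n = 2) in siFAM53C, and NRARP, with at most 3 counts in a library, was not tested.

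Earlier results of these data linked the heptamer GACAAGA in 3' UTRs to lower values in siFAM53C, so its occurrence was recorded for the present genes as a description. The letters were searched on the mRNA strand of the longest annotated 3' UTR of each gene. They occur in 11.6% of the 12083 tested genes with a 3' UTR and in 27.7% of the 892 whose 3' UTR has 0.8 to 1.25 times the length of that of GXYLT1 (5941 bases). Of the 10 genes of the set, 0 hold it, GXYLT1 included, which says only that these letters are not in that window. Of the tested genes with a 3' UTR, 15.1% of those with the heptamer and 2.92% of those without were called lower. The heptamer was linked to lower values in these same data, so this contrast is no separate result. Those with it have longer 3' UTRs (median 3344 against 1385 bases). Among the 892 long ones, counted together and not divided by the heptamer, 9.08% were called lower. The part of length in the difference was not tested. Of the 62 tested pathway genes 6 hold it, and of the 5 that fell, 1 does, MIB1. The occurrences in the targeted gene FAM53C (chr5:138347127-138347156, plus strand) and in POGLUT2, the relative of POGLUT1 that holds it (chr13:102785352-102785381, minus strand), are shown 5′ to 3′ from GRCh38 with the heptamer in capitals, to let the contexts be compared.
FAM53C: agactggccggGACAAGAtaaacggagctg
POGLUT2: ttataaccaaaGACAAGAaggcagatttgg
Both windows share the heptamer and differ around it. MIB1 fell, while POGLUT2, with a log2 fold change of -0.60 (SE 0.18), did not pass the threshold (Benjamini-Hochberg adjusted p = 0.144 in edgeR). POGLUT2 was called lower with the term for the split. The other tested pathway genes with the heptamer are named after their values were seen. They were APH1B (-0.54), FBXW7 (-0.29), NCOR1 (-0.13) and NEURL1B (0.19), and none passed the threshold in the main fit.

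The genes whose profile over the 5 libraries was nearest to that of GXYLT1 were MIGA1, THUMPD1, SDAD1, KDELR1 and ME2. Likeness was the Euclidean distance between log2 CPM values centred on their mean, among 9300 genes with a mean of at least 10 CPM, and the 5 distances ran from 0.188 to 0.278. MIGA1 promotes mitochondrial fusion, KDELR1 returns proteins from the Golgi to the endoplasmic reticulum, and ME2 is the mitochondrial malic enzyme. Their log2 fold changes of -2.15 to -1.90 were near that of GXYLT1, as the measure requires, and none is in the Notch pathway list. The 3' UTRs of MIGA1, THUMPD1, KDELR1 and ME2 hold the heptamer GACAAGA, and those of SDAD1 and GXYLT1 do not. With FAM53C left out, 11.6% of tested genes with a 3' UTR hold it, and 211 of the 523 called lower do, in the same data that the heptamer came from. The 5 genes were picked for a fall like that of GXYLT1, so their share is no separate result. With Pearson's correlation as the measure, 163 genes had an r above 0.99 over the 5 libraries, and 0 of the 5 highest were among the 5 nearest by distance.

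**Figure D5:**
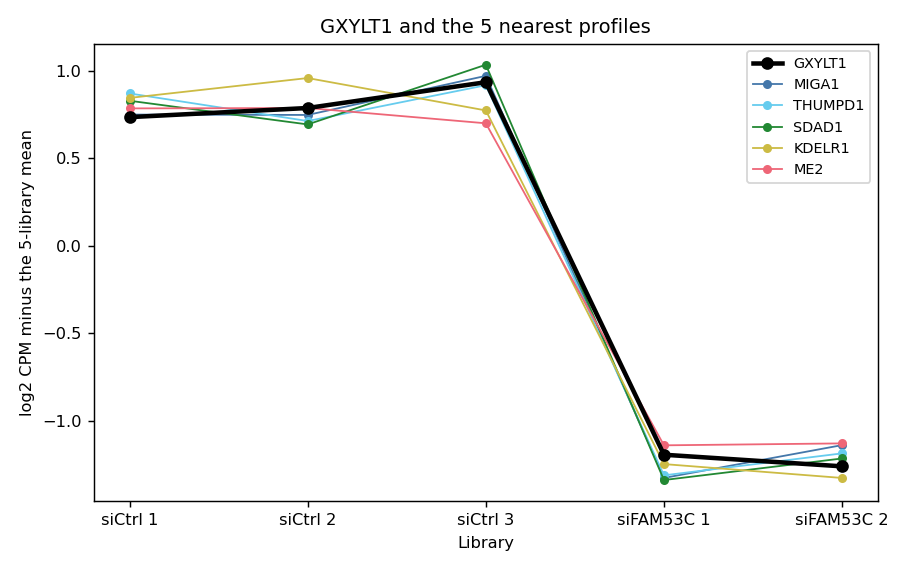
Log2 CPM minus its mean over the 5 libraries (vertical axis) for GXYLT1 (thick line) and its 5 nearest genes by distance, in each library (horizontal axis). All 6 lines run between about the same levels, with GXYLT1 at 0.73 to 0.93 in siCtrl and -1.26 to -1.19 in siFAM53C.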

How the data were processed

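The authors removed adapters from paired reads (CutAdapt 2.10), mapped the reads to hg38 (HISAT2, reverse strandedness) and assigned them to genes (featureCounts). The deposited values are these raw counts, without normalization. The annotation release and the strandedness of the counting are not given in the sources used here. The labels and the methods name different RNA extraction kits.

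Columns were matched to samples by name. Genes were kept by filterByExpr, with a minimum count of 10 and total of 15, and scaled by TMM. Robust quasi-likelihood fits on the condition alone were run in edgeR 4.0.16 under R 4.3.3, and p-values were adjusted by Benjamini-Hochberg over all tested genes (threshold 0.05). Means and TPM were computed from TMM-scaled and length-scaled counts. The library totals, 19260124 to 25615415, limit the precision for genes with few counts. Lengths, positions and sequences came from GENCODE 44 on GRCh38, in which 56105 identifiers have a symbol.

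The members, lists and alternatives were chosen with earlier results of these data known. Genes named were all members, FAM53C, pathway genes past the threshold, the 2 most abundant of each pathway group, JAG1, HES1, HEY1, NRARP and the 5 nearest profiles to GXYLT1. Others are said to be named after their values were seen, and 1 gene of the rule is not reported here. The fits on the condition alone were tried on simulated counts with the same spread for every gene and no library split. Those data differ from the present libraries, and the fits with a block or split term were not tried on them. Alternatives were DESeq2 1.42.0, limma-voom (limma 3.58.1), library totals, other filters, replicate blocks, a term for the library split and each library left out.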

Additional observations from a re-analysis of the deposited data

How the results depend on the processing

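GXYLT1, FAM53C, MIB1, RBPJ and SLC35B4 kept direction and, where tested, their call under all 13 alternatives, SLC35B4 only narrowly without siFAM53C 1. RFNG stayed between 0.28 and 0.41 and was not called. POGLUT1 stayed between -0.87 and -0.51, and was the 1 member besides GXYLT1 called lower with DESeq2, without a filter, with the replicate block by column names and with the split term. Signs turned for values close to 0. With library totals alone, which moved the median of all genes from 0.016 to 0.087, POFUT1 was 0.0048, LFNG 0.027 and NOTCH1 0.063. With a CPM filter NOTCH1 was 0.0015. With the replicate block by titles, GXYLT2 was -0.13, XXYLT1 -0.019 and NOTCH1 0.034. With the block by column names LFNG was 0.16, and with the split term 0.035. Leaving out 1 library at a time gave -0.10 to 0.60 for GXYLT2, -0.11 to 0.095 for XXYLT1, -0.20 to 0.15 for LFNG, -0.040 to 0.042 for NOTCH1 and -0.054 to 0.23 for NOTCH2. The cause was not tested.

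Pathway genes lower numbered 5, and 9 with DESeq2, 12 without a filter, 8 and 14 with the replicate block by titles and by column names, 14 with the split term and 3 to 6 with 1 library left out (3 without siCtrl 1, siCtrl 2 or siFAM53C 1). Those higher numbered 0, and 1, 3, 2, 1 and 4 in the same order and 0 to 2 with 1 library left out (2 without siCtrl 3). Over all genes, 533 lower and 75 higher of 15341 tested became 968 and 316 of 12364 with DESeq2. Without a filter they were 961 and 375 of 26587, a larger set of tested genes. They were 856 and 355, and 1350 and 642, with the 2 blocks, and 415 and 121 with library totals, each of 15341. With the split term, which was drawn from these same values, they were 1636 and 1037 (10.7% and 6.76%). With 1 siCtrl library left out they were 180 to 886 lower and 6 to 414 higher of 14876 to 15195, most without siCtrl 3.

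Replicate numbers can be matched in pairs by title, or by column name, where siFAM53C 2 carries the number 3. Deviations from the group means correlated at 0.169 and -0.285 for the title pairs, and at 0.169 and 0.371 for the column pairs, of which the last is a side of the library split. No source says what a number marks and there are only 2 pairs, so whether the column numbers pair the samples was not settled, and both blocks stand as alternatives. HES1 was called lower with both blocks (-1.70 and -1.11) and without a filter (-1.13), XYLT2 with both blocks (-0.45 and -0.44) and without siCtrl 3, and UXS1 with the block by column names (-0.51) and without a filter (-0.49). APH1B was called with the block by column names (-0.53). GXYLT1 stood at position 4 with the longest transcript, and the nearest profiles by correlation shared 0 genes with those by distance. Few counts limit GXYLT2 and NOTCH3, and the spread between libraries limits HES1 and HES4.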
